A study of Homo sapiens with 19 samples.

Results

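Cytosine methylation at CpG sites is written, copied and removed by a small set of enzymes. DNMT3A and DNMT3B place new methyl groups, DNMT3L is a catalytically inactive cofactor that stimulates them, and DNMT1, brought to newly replicated DNA by UHRF1, copies the pattern to the daughter strand. TET1, TET2 and TET3 oxidise 5-methylcytosine, and the glycosylase TDG excises the oxidised bases so that repair can restore an unmethylated cytosine. Human embryonic stem cells (hESCs) in the primed state are known for high DNMT3B and TET1. These 9 genes were taken by symbol from the 33382 genes listed for each sample, and all 9 were found.

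RNA-seq had been done on 19 samples of H1, an established hESC line grown in mTeSR1 on matrigel. PRC2 is the complex of EZH1 or EZH2 with EED and SUZ12 that trimethylates lysine 27 of histone H3 (H3K27me3), and CRISPR/Cas9 with homologous recombination had removed a functional domain of its genes. There were 2 samples of each of 6 lines, WT H1 and its derivatives SUZ12-/- H1, EED-/- H1, EZH2-/-/EZH1-/- H1, EZH2-/- H1 and EZH1-/- H1. H1-EED-/-/EED-OE cells, in which EED came only from a doxycycline (DOX) inducible transgene, were sampled once with DOX and once at each of 6 times without it, from day 8 to day 28 in steps of 4 days. The labels give the DOX sample no time of its own, but its title carries D28, so it may have been taken with the day 28 sample. By the western blots of the study, H3K27me3 was lost without EED, without SUZ12 and without both EZH proteins, and still present in the remaining lines. PRC2-null stands for these 3 lines without the mark, and WT, EZH1-/- and EZH2-/- are the 3 that retain H3K27me3. The 2 samples of a knockout line carried different clone or passage names, those of WT H1 only a number, so p-values measure the spread between these samples, which may be technical in part.

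The unit was TPM, in which the reads of a transcript are scaled by its length and by the total of the sample, so that levels of different genes can be compared. Each sample summed to between 999999.2 and 1000001.0, and the depth behind the values is unknown. Spearman correlations across genes between the 2 samples of a line lay between 0.932 in EZH2-/-/EZH1-/- cells and 0.966 in SUZ12-/- cells. Gene-level TPM, which is not limited to the removed domain, did not check the knockouts. EED was at 14.3 and 22.4 TPM in EED-/- cells against 17.3 and 21.96 in WT cells, and mean EZH1 at 14.8 in EZH1-/- against 14.0 TPM in WT cells. Mean EZH2 was at 34.5 in EZH2-/- against 56.7 TPM, and mean SUZ12 at 21.9 in SUZ12-/- against 26.6 TPM. EED did follow the transgene, with 109 TPM with DOX and 12.6 to 31.6 after its withdrawal. The PRC2-null samples did not show the marker profile of the hESCs that their label names. The 7 pluripotent cell markers, among them POU5F1 and NANOG, summed to 75.2 to 246 TPM in the 6 PRC2-null samples and to 4456 to 5529 in the 6 others, and 7 of 7 were lower. Endoderm markers were higher for 5 of 5 genes, with TTR listed at 0 in every sample that retained H3K27me3, and mesoderm and stroma markers for 4 of 5, KDR being the one that did not pass. In bulk RNA, fewer cells of a type and less RNA per cell cannot be told apart, and the part of this change of cell type in each result given here was not tested.

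Between the 3 PRC2-null lines and the 3 that retain H3K27me3, 6 of the 8 members tested passed an adjusted p of 0.01. DNMT3B, DNMT1, UHRF1 and TET1 fell, and TET2 and TET3 rose, while DNMT3A and TDG did not pass and DNMT3L was too low to be tested. Of all 19100 genes tested, 56.9% passed in this comparison, 36.8% higher and 20.1% lower (31.6 and 26.7% with median-ratio scaling, which moves the median difference of all genes by −0.21), so a count of 6 says little by itself and the sizes and directions are what the members show. The median difference over the 8 members was −0.88 on the log2(TPM + 1) scale, against 0.29 over all genes. Where samples of the groups are said not to overlap, the share of all genes that also do not was not counted. A lack of overlap thus says little by itself. Tests here are limma on log2(TPM + 1) with Benjamini-Hochberg adjustment over all genes tested, and differences and their standard errors (SE) are on that scale, which understates the change of genes of low level.

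**Figure D1:**
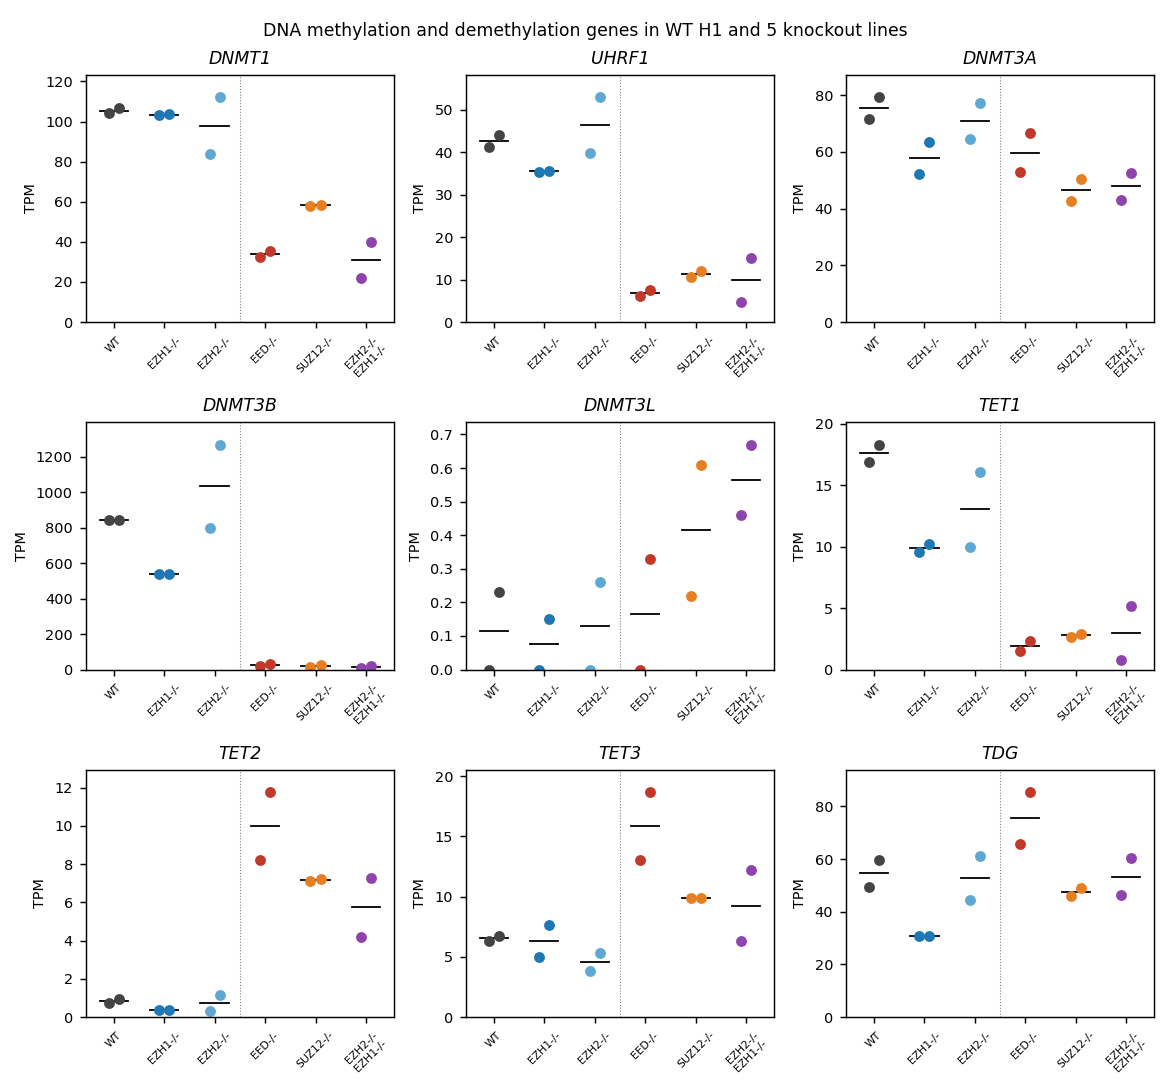
TPM (vertical axis, linear, from 0) of the 9 genes in WT cells and 5 knockout lines (horizontal axis). Points are the 2 samples of a line, bars their mean, and the dotted line parts the lines that retain H3K27me3 (left) from the PRC2-null lines (right). DNMT1, UHRF1, DNMT3B and TET1 are lower and TET2 higher in all 6 points on the right. The share of all genes that part in this way was not counted.

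Both maintenance genes fell. DNMT1, the maintenance methyltransferase, was at 104 and 107 TPM in WT cells, 103 and 104 in EZH1-/- cells and 83.7 and 112 in EZH2-/- cells. It was at 35.4 and 32.6 TPM in EED-/- cells, 58.5 and 58.0 in SUZ12-/- cells, and 39.8 and 22.02 in EZH2-/-/EZH1-/- cells. No PRC2-null sample reached the lowest of the others, and the difference was −1.37 (SE 0.15, adjusted p = 1.00e-05). Against WT alone, DNMT1 fell in EED-/- cells, with a difference of −1.61 (SE 0.25, adjusted p = 0.00037), and in EZH2-/-/EZH1-/- cells, with −1.80 (SE 0.25, adjusted p = 0.00023). The value in SUZ12-/- cells, −0.84 (SE 0.25), did not pass (adjusted p = 0.018).

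UHRF1, the reader of hemimethylated CpG that recruits DNMT1, was at 41.1 and 43.9 TPM in WT, 35.4 and 35.6 in EZH1-/- and 52.9 and 39.9 in EZH2-/- cells. Its levels were 7.54 and 6.19 TPM in EED-/-, 10.7 and 12.0 in SUZ12-/- and 15.1 and 4.67 in EZH2-/-/EZH1-/- cells. The ranges did not overlap, and the difference was −2.11 (SE 0.23, adjusted p = 1.07e-05). UHRF1 fell against WT in all 3 PRC2-null lines, with differences of −2.47 (adjusted p = 0.00040) in EED-/-, −1.82 (adjusted p = 0.0031) in SUZ12-/- and −2.19 (adjusted p = 0.0012) in EZH2-/-/EZH1-/- cells, each with an SE of 0.39. UHRF1 over DNMT1 was 0.343 to 0.633 in the 6 samples that retain H3K27me3 and 0.183 to 0.380 in the 6 PRC2-null samples, which overlap. The higher of the 2 EZH2-/-/EZH1-/- samples, replicate 1, also had the higher MKI67, a proliferation marker, at 11.3 against 1.57 TPM.

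DNMT3B, a de novo enzyme, had the largest difference of the 8 members tested. It was at 846 and 840.4 TPM in WT cells, 541 and 538 in EZH1-/- and 796 and 1268 in EZH2-/- cells. In EED-/- cells it was at 30.9 and 19.6 TPM, in SUZ12-/- cells at 24.9 and 13.2, and in EZH2-/-/EZH1-/- cells at 21.8 and 6.92. The highest PRC2-null sample thus lay far under the lowest of the others, and the difference was −5.36 (SE 0.26, adjusted p = 2.96e-08), or 41.1-fold. Mean TPM was 33.4-fold lower than in WT cells for EED-/-, 44.2-fold for SUZ12-/- and 58.7-fold for EZH2-/-/EZH1-/- cells, and DNMT3B fell in each (adjusted p at most 7.75e-06).

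DNMT3A, the other de novo enzyme, was at 79.3 and 71.5 TPM in WT, 52.0 and 63.4 in EZH1-/- and 64.5 and 77.3 in EZH2-/- cells. Its values in the PRC2-null lines were 66.7 and 52.8 TPM in EED-/-, 50.5 and 42.7 in SUZ12-/- and 52.6 and 43.2 in EZH2-/-/EZH1-/- cells. These overlap, and the difference of −0.40 (SE 0.12) did not pass (adjusted p = 0.012). With median-ratio scaling, DNMT3A passed at −0.66 (adjusted p = 0.00052), and the same setting brought DNMT3A and DNMT1 past the threshold in SUZ12-/- cells. It also brought DNMT3A past it in EZH2-/-/EZH1-/- cells (−0.80, adjusted p = 0.0091). DNMT3L was listed at 0 in 4 of the 12 line samples and at no more than 0.67 TPM in the others. The 2 samples gave 0 and 0.23 TPM in WT, 0.15 and 0 in EZH1-/-, 0.26 and 0 in EZH2-/-, 0.33 and 0 in EED-/-, 0.22 and 0.61 in SUZ12-/- and 0.46 and 0.67 in EZH2-/-/EZH1-/- cells, and the groups overlap.

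The order within the family turned. DNMT3B made up 76.3 to 87.0% of the summed TPM of the 4 DNMT genes in the samples that retain H3K27me3 (median 82.3%) and 9.51 to 23.2% in the PRC2-null samples (median 18.6%). DNMT3A went from at most 8.996% to at least 37.3% of the sum. The ratio of DNMT3B to DNMT3A was 8.48 to 16.4 in the former samples and 0.160 to 0.493 in the latter. The summed level was 696 to 1458 TPM and 72.8 to 134 TPM, respectively.

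The TET genes moved in opposite directions. TET1 was at 18.3 and 16.9 TPM in WT, 9.60 and 10.2 in EZH1-/- and 16.1 and 9.97 in EZH2-/- cells. In EED-/- cells it was at 1.47 and 2.29 TPM, in SUZ12-/- cells at 2.90 and 2.68, and in EZH2-/-/EZH1-/- cells at 5.19 and 0.76. The groups did not overlap, although the EZH2-/-/EZH1-/- samples were far apart, and the difference was −2.09 (SE 0.28, adjusted p = 5.65e-05). Against WT it fell in each of them, with differences of −2.71 in EED-/-, −2.30 in SUZ12-/- and −2.495 in EZH2-/-/EZH1-/- cells (SE 0.48 each, adjusted p = 0.00086, 0.0027 and 0.0019).

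TET2, which unlike TET1 has no CXXC domain of its own, was at 0.74 and 0.92 TPM in WT, 0.39 and 0.38 in EZH1-/- and 1.13 and 0.34 in EZH2-/- cells. It was at 11.8 and 8.19 TPM in EED-/-, 7.21 and 7.13 in SUZ12-/- and 7.29 and 4.20 in EZH2-/-/EZH1-/- cells, again without overlap. The difference was 2.36 (SE 0.19, adjusted p = 1.11e-06), and TET2 rose against WT in each PRC2-null line, by 2.57, 2.16 and 1.84 (SE 0.33 each, adjusted p = 9.03e-05, 0.00032 and 0.0011). In mean TPM this was 12.0-fold, 8.64-fold and 6.92-fold. TET2-AS1, the antisense gene at the same locus, was listed at 0 in all 19 samples.

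TET3 was at 6.35 and 6.77 TPM in WT, 5.0 and 7.63 in EZH1-/- and 5.30 and 3.85 in EZH2-/- cells, and at 18.7 and 13.1 in EED-/-, 9.85 and 9.92 in SUZ12-/- and 12.2 and 6.29 in EZH2-/-/EZH1-/- cells. It rose between the groups by 0.86 (SE 0.19, adjusted p = 0.0024), although the second EZH2-/-/EZH1-/- sample lay within the range of the samples that retain H3K27me3. No single line passed against WT, EED-/- H1 being the nearest at 1.14 (SE 0.34, adjusted p = 0.016). The call for the 3 lines together was lost with WT alone as reference (0.68, adjusted p = 0.054), without the EED-/- line (0.63, adjusted p = 0.030), without the EZH2-/- line (0.72, adjusted p = 0.015) and without EZH1-/- replicate 1 (0.77, adjusted p = 0.0105).

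The summed TET level overlapped between the groups, at 14.2 to 25.4 TPM in the samples that retain H3K27me3 and 11.3 to 31.9 TPM in the PRC2-null samples, while its make-up did not. TET1 went from 56.0 to 72.1% of the sum to 4.61 to 21.0%, TET2 from 2.09 to 5.02% to 29.5 to 37.3%, and TET3 from 23.5 to 41.9% to 49.4 to 58.5%. The ratio of TET1 to TET2 was 14.2 to 29.3 in the former samples and 0.125 to 0.712 in the latter.

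TDG, the glycosylase that follows TET, was at 49.5 and 59.8 TPM in WT, 30.8 and 30.6 in EZH1-/- and 61.2 and 44.4 in EZH2-/- cells. Its levels were 65.8 and 85.5 TPM in EED-/-, 48.9 and 45.9 in SUZ12-/- and 60.3 and 46.3 in EZH2-/-/EZH1-/- cells. The groups overlap, and the difference of 0.36 (SE 0.13) did not pass (adjusted p = 0.028). Both EED-/- samples were above every other line sample.

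**Figure D2:**
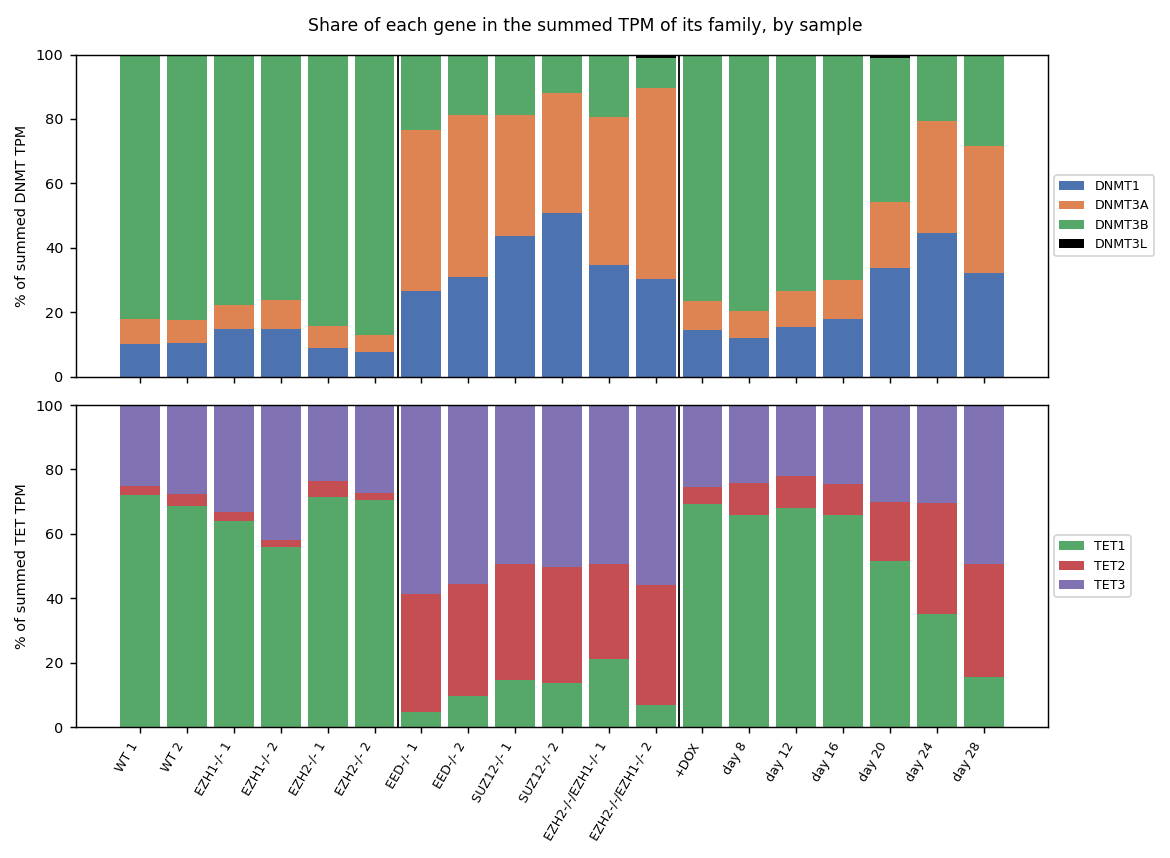
Percent of the summed TPM of the DNMT genes (top) and the TET genes (bottom) that each gene makes up, by sample (horizontal axis): 6 samples that retain H3K27me3, 6 PRC2-null samples and 7 samples of H1-EED-/-/EED-OE cells, parted by black lines. DNMT3B and TET1 fill most of the bar on the left and less than 24% of it in the PRC2-null samples.

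The members lie apart in the genome except for a pair each on chromosomes 2 and 19. On GRCh38, DNMT3A is at chr2:25227855-25342590 (minus strand), TET3 at chr2:73984910-74108176 (plus), TET2 at chr4:105145875-105279816 (plus) and TET1 at chr10:68560337-68694487 (plus). TDG is at chr12:103965822-103988874 (plus), UHRF1 at chr19:4903080-4962154 (plus), DNMT1 at chr19:10133342-10231286 (minus), DNMT3B at chr20:32762385-32809359 (plus) and DNMT3L at chr21:44246339-44262216 (minus). DNMT1, DNMT3L and TET3 have exons that another listed gene overlaps in GENCODE, so that reads may be shared. The partner of DNMT1 is S1PR2 (3.17 to 9.51 TPM over the 19 samples), that of DNMT3L is DNMT3L-AS1 (at most 0.51 TPM) and that of TET3 the long non-coding gene ENSG00000235499 (at most 5.52 TPM). The kit used did not mark strand.

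DNMT1, UHRF1 and TET1 fell in the lines where TET2 rose, so the bases ahead of their starts are set side by side. They come from the RefSeq promoter table (GRCh38.p14), which had an entry for 8 of the 9 members and none for DNMT3L, and the most 5′ entry of each gene was used. For DNMT1 and UHRF1 this start lies inside the longer span that GENCODE gives the gene. For TET2 it lies at −1001 bases, that is ahead of the start of the transcript that GENCODE marks as canonical. For DNMT1, UHRF1 and TET1 it is that start, so the TET2 window is not of the same kind. Each stretch begins 250 bases before the start and ends at the start or, where an exon annotated by GENCODE begins earlier, ahead of it. Strands are read 5′ to 3′, and capitals mark CpG sites, the substrate of these enzymes.
DNMT1, chr19:10195136-10195203, minus strand: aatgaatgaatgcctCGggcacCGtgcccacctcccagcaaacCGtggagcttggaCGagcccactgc
UHRF1, chr19:4909251-4909429, plus strand: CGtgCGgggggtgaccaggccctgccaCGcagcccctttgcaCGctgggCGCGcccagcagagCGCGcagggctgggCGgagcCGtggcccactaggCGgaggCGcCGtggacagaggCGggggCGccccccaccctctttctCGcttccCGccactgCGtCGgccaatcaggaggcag
TET1, chr10:68560087-68560336, plus strand: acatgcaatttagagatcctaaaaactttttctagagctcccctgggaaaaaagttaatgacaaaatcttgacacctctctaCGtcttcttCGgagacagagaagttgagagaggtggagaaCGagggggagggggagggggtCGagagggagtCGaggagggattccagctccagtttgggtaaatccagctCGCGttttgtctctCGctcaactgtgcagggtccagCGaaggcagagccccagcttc
TET2, chr4:105145625-105145874, plus strand: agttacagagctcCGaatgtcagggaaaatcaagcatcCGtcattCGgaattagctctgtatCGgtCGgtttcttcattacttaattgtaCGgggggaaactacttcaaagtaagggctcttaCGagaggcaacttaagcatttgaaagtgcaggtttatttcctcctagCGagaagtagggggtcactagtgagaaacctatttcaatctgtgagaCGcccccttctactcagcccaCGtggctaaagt

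In the full 250 bases there were 21 CpG sites for DNMT1, 28 for UHRF1, 9 for TET1 and 10 for TET2, against a median of 10 and quartiles of 3 and 23 over 27303 genes with an entry. UHRF1 had more than 84.6% of genes, and TET1 and TET2 were near the middle, the TET2 window lying well ahead of its canonical start. TET3, the other member that rose, had 37 sites, more than 96.1% of genes. The core of the E2F motif, which many replication genes carry, was searched on both strands as TTCCCGC (found for 5.56% of genes), TTCGCGC (1.87%), TTGGCGC (2.6%) or TTGCCGC (1.82%). It was found at 2 positions for UHRF1, 104 bases (in the stretch shown) and 14 bases before the start, and at 1 position each for TET3 and TDG, but not in the windows of DNMT1, TET1 or TET2. Of all genes with an entry, 10.9% had at least 1 of the 4. The only entry for DNMT3B began 17467 bases inside the gene, past the start that GENCODE gives, and is not shown.

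EZH1-/- and EZH2-/- cells, which retain H3K27me3, gave 0 called members each. In EZH1-/- cells 0.110% of all genes passed, and 1 of 8 members (3058 of all genes) had an unadjusted p under 0.05. This was TDG, at −0.80 (SE 0.23, adjusted p = 0.12). Both EZH1-/- samples also lay under both WT samples for 7 of the 8 members tested, all but TET3 (background 28.7% of genes), with means of 539 against 843 TPM for DNMT3B and 9.91 against 17.6 TPM for TET1. When only the 4 samples of this line and WT were fitted, DNMT3B, TET1 and TDG passed (adjusted p = 0.00075, 0.0082 and 0.0027), where 13.1% of 15476 genes did. In EZH2-/- cells 0 of 19100 genes passed in limma, 1110 had an unadjusted p under 0.05, and none of these was a member. Its 2 samples lay on either side of the WT range for 5 of the 8 members (background 26.5% of genes), with DNMT3B at 796 and 1268 TPM around 840.4 to 846, and intervals were wide: −0.74 to 1.25 for DNMT3B and −1.51 to 0.62 for TET1.

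**Figure D3:**
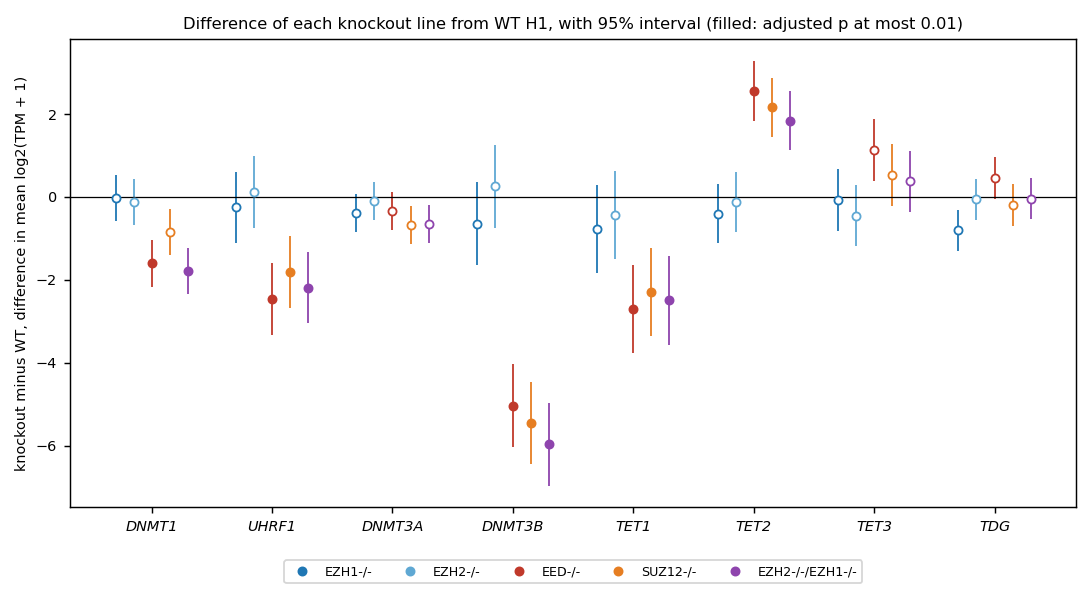
Difference in mean log2(TPM + 1) of each knockout line from WT cells (vertical axis) for the 8 members tested (horizontal axis), with 95% intervals from limma. Filled points passed an adjusted p of 0.01, and the 14 filled points all belong to EED-/-, SUZ12-/- and EZH2-/-/EZH1-/- cells.

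Counted by line against WT, 5 members passed in EED-/- cells (background 36.6% of genes), 4 in SUZ12-/- cells (32.9%) and 5 in EZH2-/-/EZH1-/- cells (29.3%). These comparisons share the WT samples. With only the 4 samples of EZH2-/-/EZH1-/- and WT in the fit, DNMT3B alone passed there (adjusted p = 0.0027, 12.3% of 16642 genes). Leaving out 1 of the 4 samples lowered the count in SUZ12-/- cells to 2 in every case, as TET1 and UHRF1 then missed the threshold, and in EZH2-/-/EZH1-/- cells to 2 without WT replicate 1 and 3 without WT replicate 2. In EED-/- cells it was 4 without EED-/- replicate 1, where TET1 missed it (adjusted p = 0.012). The share of all genes called in these fits without 1 sample is not given here. Compared with each other directly, the PRC2-null lines gave 0 called members. The nearest was DNMT1, higher in SUZ12-/- than in EZH2-/-/EZH1-/- cells by 0.95 (SE 0.25, adjusted p = 0.029, background 6.80%), and it passed at 1.36 (adjusted p = 0.0010) without EZH2-/-/EZH1-/- replicate 1, as did UHRF1 at 1.12 (adjusted p = 0.0073). EED-/- against SUZ12-/- cells gave −0.76 for DNMT1 (adjusted p = 0.057, background 9.67%) and 0.65 for TDG (adjusted p = 0.068). EED-/- against EZH2-/-/EZH1-/- cells also gave 0 (background 0.0890%), as did EZH2-/- against EZH1-/- cells (background 0.0838%), where TDG differed by 0.75 (adjusted p = 0.19).

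The time course gives the levels of the members on single days after DOX was withdrawn. With 1 sample per day only the slope over days 8 to 28 could be tested, not the day of a change. DNMT3B was at 434 TPM with DOX and at 524, 401, 316, 91.1, 21.5 and 32.6 TPM on days 8, 12, 16, 20, 24 and 28. It fell by 0.24 log2 units per day (SE 0.034, adjusted p = 0.0091), the 1 member of 8 to pass where 2.02% of 17245 genes did. This call is near the threshold, and it was lost when each day in turn was left out (adjusted p = 0.011 to 0.046). On day 24 DNMT3B lay within the range of the PRC2-null lines, 6.92 to 30.9 TPM, and on day 28 just above it.

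TET2 was at 0.46 TPM with DOX and then at 1.74, 1.95, 2.03, 3.57, 4.89 and 7.37 TPM, each day above the one before, and the last 2 values lay within the range of the PRC2-null lines. Its slope of 0.083 per day (SE 0.022) did not pass (adjusted p = 0.040). DNMT1 was at 82.1 TPM with DOX and at 77.8, 83.5, 80.6, 68.0, 46.4 and 37.2 TPM, level to day 16 and lower on each later day, with a slope of −0.057 (SE 0.015, adjusted p = 0.039). TET1 was at 6.09 TPM with DOX and at 11.3, 13.4, 14.1, 9.90, 5.01 and 3.26 TPM, with a slope of −0.085 (SE 0.025, adjusted p = 0.050). On days 24 and 28 both DNMT1 and TET1 were within the range of the PRC2-null lines.

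UHRF1 did not follow the same course. It was at 12.6 TPM with DOX, within the range of the PRC2-null lines, and at 27.4, 21.98, 30.8, 36.5, 21.95 and 9.24 TPM on the 6 days, highest on day 20 when DNMT3B had already dropped to 91.1 TPM. Its slope was −0.051 (SE 0.029, adjusted p = 0.24), and 0.0022 without day 28. MKI67 was at 24.6 TPM with DOX, 50.7 and 45.6 on days 16 and 20 and 7.52 on day 28. Their relation was not tested.

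DNMT3A was at 50.1 TPM with DOX and at 56.4, 61.4, 54.0, 41.6, 35.9 and 45.4 TPM on the 6 days, a spread of less than 2-fold. TET3 was at 2.23 TPM with DOX and at 4.14, 4.31, 5.25, 5.76, 4.34 and 10.3 TPM, and TDG at 21.0 TPM with DOX and 38.1, 37.6, 49.5, 50.1, 38.3 and 73.7 TPM. Both were highest on day 28, and neither slope passed (adjusted p = 0.24 and 0.20). DNMT3L was listed at 0 with DOX and on days 8, 12 and 24, and was at 0.27, 1.95 and 0.34 TPM on days 16, 20 and 28. The day 20 value was the highest of all 19 samples, but it is low and rests on 1 sample. The same sample held the highest summed germ cell markers, 74.0 TPM against 5.08 with DOX. NANOS3 was at 20.6 TPM, DAZL at 0.44 and DDX4 at 0.14 TPM. Markers of other lists were also highest there, with HAND1 at 469.6, GATA3 at 61.43, KLF4 at 44.2 and CDX2 at 34.24 TPM. KRT7, listed with CDX2 and GATA3 for trophoblast, was not (6.44 TPM). Germ cell markers were thus not singled out, and their relation to DNMT3L was not tested.

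Against the DOX sample, and on the log2(TPM + 1) scale, 1 member differed by at least 2-fold on day 8 (background 14.4% of genes), 2 on day 12 (13.7%), 4 on day 16 (17.1%), 5 on day 20 (28.3%), 2 on day 24 (37.1%) and 5 on day 28 (45.2%), with no replicate check. In TPM without the added 1 the ratio of the lowest members was larger, TET2 being 3.78-fold higher on day 8. By the former measure TET1 was higher than with DOX on days 12 and 16, and UHRF1 on days 8, 16 and 20. The DOX sample itself lay under all 12 line samples for TET3 (2.23 against a lowest of 3.85 TPM) and TDG (21.0 against 30.6). For TET1 it lay under all samples of the lines that retain H3K27me3 (6.09 against a lowest of 9.60 TPM). The same held for UHRF1 (12.6 against 35.4 TPM) and DNMT3B (434 against 538). It held by less for DNMT3A (50.1 against 52.0 TPM) and DNMT1 (82.1 against 83.7). Rises of these members over DOX, and the size of their falls from it, thus depend on 1 low sample. DNMT3B was lower by at least 2-fold from day 20 on, and DNMT1 on day 28. DNMT3B made up 70.1% of the DNMT sum on day 16, 44.95% on day 20 and 20.8% on day 24, when DNMT1 and DNMT3A each held more. TET1 made up 65.9, 51.5 and 35.2% of the TET sum on the same days, was still level with TET2 (34.3%) on day 24, and was the smallest share, 15.6%, on day 28, when TET3 held 49.3%. Pluripotent cell markers summed to 5272 TPM on day 16, 2101 on day 20 and 206 on day 24.

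**Figure D4:**
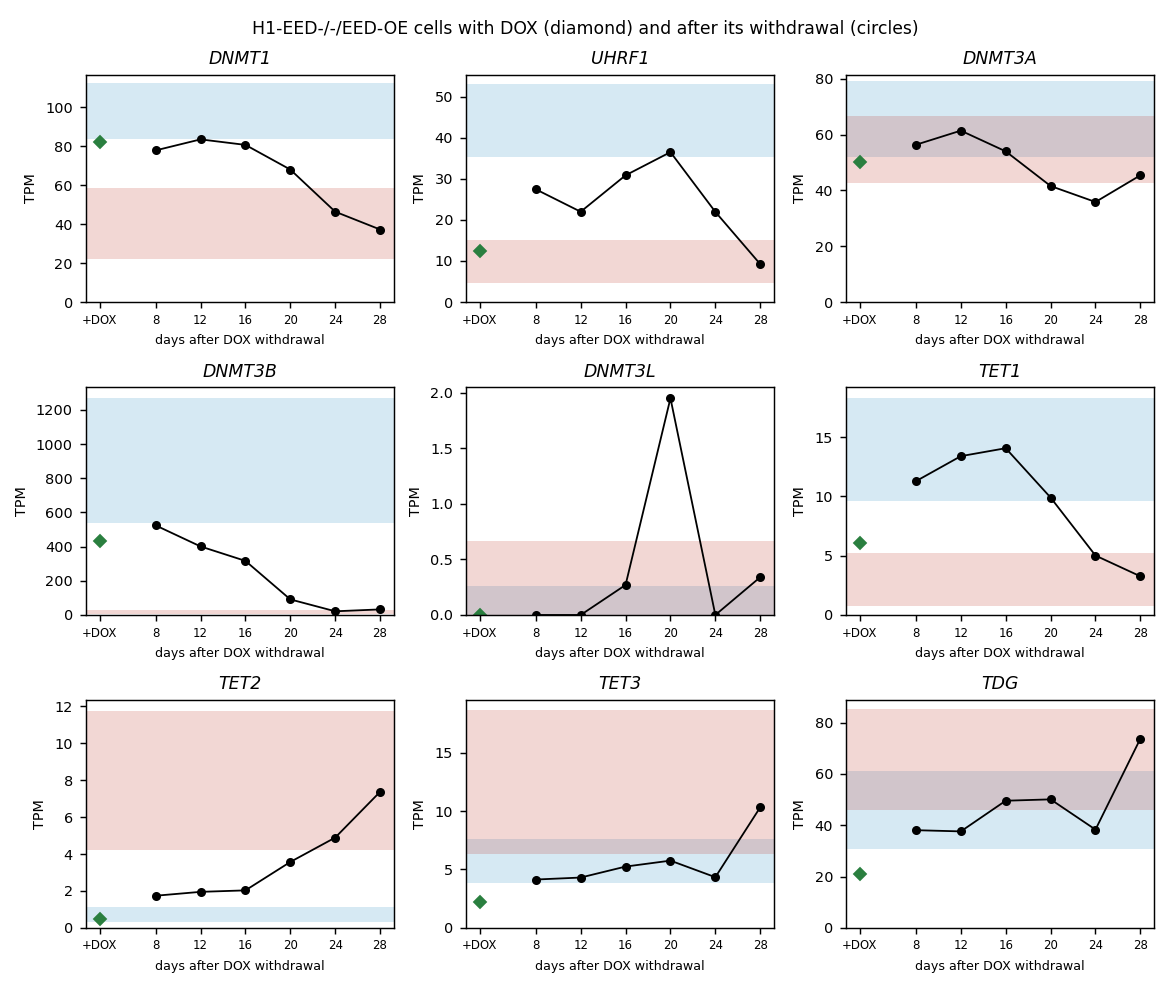
TPM (vertical axis, linear, from 0) of the 9 genes in H1-EED-/-/EED-OE cells with DOX (diamond) and on days 8 to 28 after its withdrawal (circles, horizontal axis), 1 sample each with no error. Bands give the range of the 6 samples that retain H3K27me3 (blue) and of the 6 PRC2-null samples (red); DNMT3B and DNMT1 descend toward the red band and TET2 climbs into it, while UHRF1 peaks on day 20.

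Over all 19 samples, the levels of log2(TPM + 1) of TET1 and UHRF1 had a Pearson r of 0.94, those of DNMT1 and DNMT3B 0.91, and those of DNMT3B and TET2 −0.90. These are descriptions, since samples of a line and days of the time course are not independent. Among 16895 genes, the pattern most like DNMT3B was that of MCM2, a subunit of the replicative helicase (r = 0.98), followed by EIF3B (0.98) and SNRPA1 (0.98). For TET1 it was DNA2 (0.98), DEK (0.98) and RAD51AP1 (0.97), for UHRF1 KIF14 (0.96), MAD2L1 (0.96) and DEK (0.95), and for DNMT1 PFAS (0.97), FANCD2 (0.97) and SOX13 (0.96). TET2 was nearest to ITM2B (0.99), CTSO (0.98) and STX12 (0.98), and TET3 to FAM13B (0.96), CTD-2303H24.2 (0.95) and KIAA0232 (0.95). DNMT3A and TDG had looser matches, led by KCNS3 (0.86) and CDC73 (0.92).

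Replication genes moved with the falling members. Of 17 genes of DNA replication and proliferation, 16 fell in the PRC2-null lines and 0 rose, TYMS being the one that did not pass. The median was −2.82 against 0.29 over all genes. Of all genes tested, 20.1% fell and 36.8% rose, and the counts of each list are to be read against these shares. The largest falls were those of CDC6, which loads the helicase on origins (−3.23, adjusted p = 2.48e-06), and of the helicase genes GINS2 (−3.18, adjusted p = 4.10e-08) and MCM5 (−3.15, adjusted p = 2.36e-08). The list summed to 287 to 433 TPM in the 6 PRC2-null samples and to 1529 to 2291 in the 6 others. The part of proliferation in the levels of DNMT1 and UHRF1 was not tested.

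Of 7 genes, the partners of maintenance methylation and its inhibitor DPPA3, 4 fell and none rose (median −1.71, background 20.1% lower and 36.8% higher). CDCA7L was at 6.75 to 23.3 TPM in the PRC2-null samples and 113 to 174 TPM in the others (−3.28, SE 0.24, adjusted p = 6.35e-07). CDCA7, which targets the remodeller HELLS to hemimethylated DNA, differed by −2.38 (SE 0.32, adjusted p = 6.76e-05) and HELLS itself by −2.29 (SE 0.19, adjusted p = 1.25e-06). The remaining call was PCNA, the sliding clamp, and USP7 and ZBTB24 did not pass. Nor did the inhibitor DPPA3, whose difference was in the other direction (0.63, SE 0.23, adjusted p = 0.028).

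Genes listed as readers of methylated CpG went the other way for 7 of 11, with 1 lower and a median of 0.80 (background 36.8% higher and 20.1% lower). The 7 include MBD5 and MBD6, which group with the readers by their domain only, so the count depends in part on listing them. The zinc finger proteins ZBTB38 and ZBTB4 rose by 2.05 (SE 0.27, adjusted p = 5.46e-05) and 1.83 (SE 0.18, adjusted p = 4.64e-06), and MBD6 by 1.27 (SE 0.15, adjusted p = 2.17e-05). MBD2, the reader in the NuRD complex, fell by 0.73 (SE 0.14, adjusted p = 0.00079).

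Of 5 TET partners, 1 rose and 1 fell (median 0.21), where 36.8% of all genes rose and 20.1% fell. These counts say little by themselves. CXXC4, a CXXC protein that lies beside TET2 in the genome, rose from 0.32 to 0.99 TPM to 3.53 to 6.20 TPM (1.84, SE 0.18, adjusted p = 5.68e-06). IDH1, which makes the 2-oxoglutarate that TET enzymes consume, fell by 1.13 (SE 0.17, adjusted p = 0.00014). The genes listed for excision repair after TDG split, with 5 of 12 higher and 6 lower (median −0.31, background 36.8% higher and 20.1% lower). The 5 higher include GADD45A, GADD45B and GADD45G, so the split depends in part on counting these in the list. GADD45A and GADD45B, stress-response genes linked to demethylation, rose by 2.94 (adjusted p = 7.63e-09) and 2.86 (adjusted p = 1.27e-06), and NEIL1 by 1.39 (adjusted p = 6.13e-05). The largest falls were PARP1 (−2.64, adjusted p = 1.90e-07), NEIL3 (−1.94, adjusted p = 7.33e-06) and the DNA ligase LIG3 (−1.43, adjusted p = 5.02e-05).

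The methyl donor and one-carbon enzymes fell for 11 of 16 genes and rose for 3 (median −0.77, background 20.1% lower and 36.8% higher). MTHFD1 of the folate cycle fell, with a difference of −2.63 (adjusted p = 4.07e-08), as did AHCY, which clears S-adenosylhomocysteine (−1.33, adjusted p = 1.51e-05). NNMT, which uses S-adenosylmethionine to methylate nicotinamide, was at 0 to 0.33 TPM in the samples that retain H3K27me3 and at 72.02 to 502 TPM in the PRC2-null samples (7.31, SE 0.17, adjusted p = 2.51e-10). BHMT rose by 1.92 (adjusted p = 0.00011), but its ranges overlap. It was at 0.49 to 54.1 TPM (median 3.43) in the PRC2-null samples and 0.54 to 1.54 TPM in the others. Chromatin factors that guide DNA methylation fell for 4 of 10 genes with none higher (median −0.30, background 20.1% lower and 36.8% higher). TRIM28 (−1.42, adjusted p = 1.18e-07), EHMT2 (−1.40, adjusted p = 1.64e-06) and WHSC1 (−0.89, adjusted p = 0.0036) led these, and the other was EHMT1.

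The listed genes that DNA methylation is known to hold silent in the soma were low in the PRC2-null samples. Of 9 germline genes, 3 were high enough to test, and of these DAZL (−1.33, adjusted p = 0.00022) and TEX14 (−0.74, adjusted p = 0.0017) fell. SYCP3 did not pass, with a difference in the other direction (0.44, adjusted p = 0.079). STK31, too low to be tested, was at 0.47 to 1.42 TPM in the PRC2-null samples and 0.14 to 0.46 TPM in the others. The list summed to 2.66 to 4.94 TPM in the PRC2-null samples and 2.48 to 11.1 TPM in the others, with DDX4 at 0 to 0.17 TPM and ASZ1 and HORMAD1 at no more than 0.23 TPM in any line sample.

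**Figure D5:**
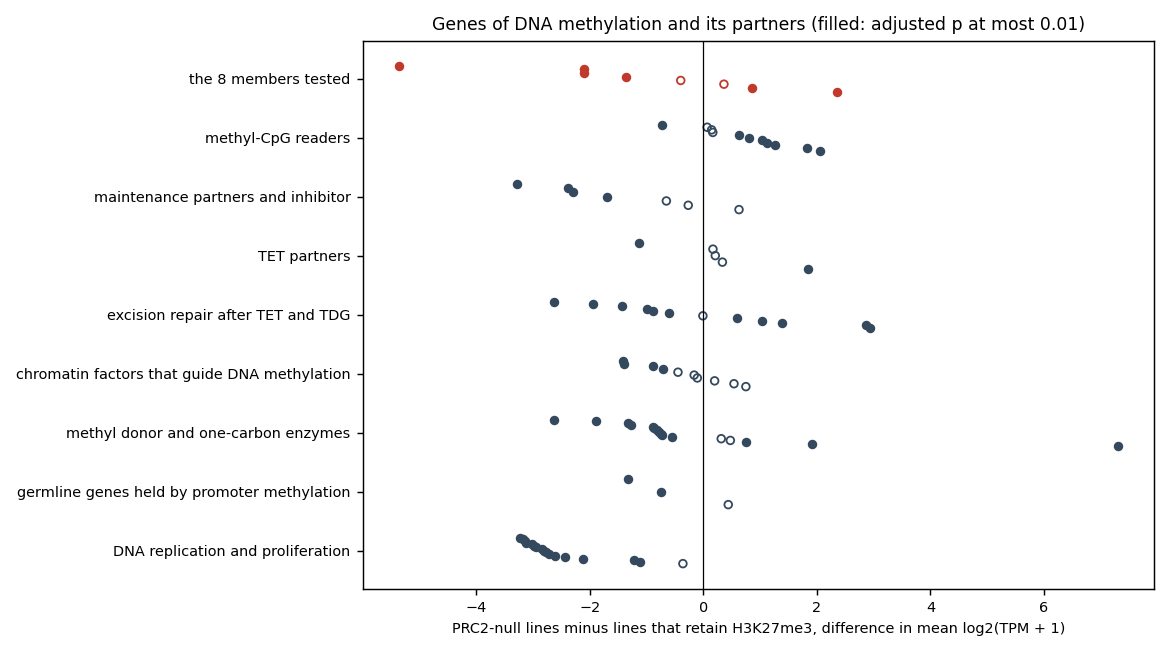
Difference in mean log2(TPM + 1) between the 3 PRC2-null lines and the 3 lines that retain H3K27me3 (horizontal axis) for the 8 members tested (red) and the tested genes of 8 lists (rows); each point is a gene, filled where the adjusted p was at most 0.01. All but 1 of the 17 replication genes are filled and left of 0, and most genes listed as readers of methylated CpG lie right of it.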

How the data were processed

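The authors prepared TruSeq libraries, sequenced them on an Illumina NextSeq, aligned the reads with Bowtie2 to mRNA sequences of GRCh38, quantified them with RSEM and deposited 1 TPM value per gene and sample. The edgeR test on counts that they describe needs counts and was not run. Rows were joined by Ensembl ID, since 33 symbols differ between files. From the TPM, log2(TPM + 1) was tested with limma 3.58.1 in R 4.3.3 (eBayes with trend and robust) over the 19100 genes at 1 TPM or more in at least 2 of 12 line samples, with a mean for each of 6 lines and 6 residual degrees of freedom, which assumes that all lines vary alike. The days were fitted apart (17245 genes, 4 residual degrees of freedom). Calls are at an FDR of 1%. Members are named in full, other genes as at most the 3 largest rises and falls of each list, of which some are not reported here. Members and lists were chosen with earlier results of these data known. Groups came from the labels. Alternatives were another pseudocount (0.1), filter, scaling, threshold, eBayes setting, reference and set of samples. The script was tested on simulated data.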

Additional observations from a re-analysis of the deposited data

How the results depend on the processing

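For the 3 PRC2-null lines together, DNMT3B, UHRF1, TET1 and TET2 were called under every alternative run with the directions given, DNMT1 under all but the one that asked for a 3-fold change and TET3 under 21 of 26. With TPM of at least 1 in every sample, TET1 and TET2 left the test, and the members called against WT numbered 3 in EED-/-, 2 in SUZ12-/- and 3 in EZH2-/-/EZH1-/- cells. With the other lines left out of the fit, 2 samples against 2 called 1 member in EZH2-/-/EZH1-/- (12.3% of all genes) and 3 in EZH1-/- cells (13.1%). Leaving out 1 sample gave 4 to 5 members in EED-/-, 2 in SUZ12-/-, 2 to 5 in EZH2-/-/EZH1-/- cells, 5 to 7 for the 3 lines together, and 0 to 2 for SUZ12-/- against EZH2-/-/EZH1-/- cells. At an FDR of 5% that comparison had 1 member and the slope over days 3. Apart from the fits of 2 samples against 2, the share of all genes called under each alternative is not given here. A changed member count thus cannot be set against a changed share. The slope had 0 called members with no filter, with median-ratio scaling, without trend and robust, without each day in turn, with DOX as day 0 and on log2 of the day. The cause was not tested. Without day 28 the slope of UHRF1 turned to 0.0022.

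Signs turned only for differences that had not passed. Median-ratio scaling gave 0.0045 for DNMT3A and 0.036 for TDG in EZH2-/- cells. Leaving out 1 sample gave in EZH2-/- cells −0.33 to 0.090 for DNMT1, −0.22 to 0.037 for DNMT3A, −0.082 to 0.59 for DNMT3B, −0.45 to 0.22 for TET2, −0.090 to 0.31 for UHRF1 and −0.29 to 0.17 for TDG. It gave −0.33 to 0.19 for TET3 in EZH1-/- cells, and −0.052 to 0.81 for TET3 and −0.23 to 0.15 for TDG in EZH2-/-/EZH1-/- cells. For UHRF1 in SUZ12-/- against EZH2-/-/EZH1-/- cells it gave −0.39 to 1.12, the latter passing. A lone sample left in a line was assumed to vary like the other lines. No paired analysis was possible because the labels name clones and passages, not shared replicate numbers. TPM hold no depth, so counting error is unknown, and with 2 samples per line precision rests on the pooled spread.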

Other observations

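Marker lists beyond those given with the samples were also counted between the PRC2-null lines and the lines that retain H3K27me3. Trophoblast markers were higher for 3 of 3 genes, with sums of 73.1 to 406 TPM against 11.9 to 14.8 TPM. Of 4 naive pluripotent markers tested KLF4 was higher and DPPA5 lower. KLF17 was too low to test in both groups, at no more than 0.04 TPM in any line sample. Of 4 germ cell markers tested NANOS3 and PRDM1 were higher and DAZL lower. Of 2 neural ectoderm markers tested PAX6 was higher. Among all genes tested 36.8% were higher in the PRC2-null lines.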
